A study of Arabidopsis thaliana with 128 samples.

Results

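A set of 183 annotated transposable elements (TEs) of *Arabidopsis thaliana* was followed across all libraries because these TEs had transcripts in stem cell nuclei of wild-type plants that had received no heat stress. A TE belonged to the set when its normalized count averaged at least 20 over the 8 libraries of control stem cell nuclei (wt CS7) and below 20 over the 4 libraries of heat-stressed seedling tissue (wt HT7). Of 31189 TEs in the table, 251 reached 20 in wt CS7, 68 of these were also at 20 or more in wt HT7 and were left out, and 183 remained. A normalized count is a read count that was divided by the size factor of the library, so that it compares 1 feature between libraries and not features of different length. Since the TEs were chosen by their levels in wt CS7 and wt HT7, every value given for these groups is a description and carries no test. The levels in the other 24 conditions were not used by the rule.

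All plants were in the Col-0 background and carried the stem cell reporter *pCLV3::H2BmCherry*, a histone tagged with a red fluorescent protein under the promoter of CLAVATA3. The mutants were *poliv* (*nrpda-3*), with an insertion in the gene for the largest subunit of RNA polymerase IV, *ddm1* (*ddm1-10*), with an insertion in the gene for the chromatin remodeler DDM1, and the reporter line without either mutation is called wt. Seedlings at day 7 had received 37 °C for 1 day (H) or stayed at 21 °C (C), and were taken as tissue without roots (T7), as sorted stem cell nuclei (S7) or, from wt, as sorted nonstem cell nuclei (N7). The remaining seedlings grew for a further 21 d on soil and were taken at day 28 as inflorescence tissue (I28) or as stem cell nuclei (S28). Groups held 8 libraries in S7, 6 in N7 and 4 in T7, I28 and S28, except for 3 in *poliv* CT7, wt CI28, *ddm1* HI28 and *ddm1* HS28. Stem cell nuclei are those that fluoresce from the reporter, so the sort follows the activity of the CLAVATA3 promoter. Each library of nuclei came from a small pool of nuclei, and the study describes the nonstem cell nuclei in its results as representing all cells of the above-ground tissue. The study's methods give Smart-seq v3 for S7 and v2 for T7, I28 and S28, and the labels give v2 throughout, so a level compared between S7 and these other materials also compares library chemistries, and these cannot be told apart. Among the labels of the T7 libraries, the tag for the cell type goes against the titles, and the titles were followed.

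TEs are mobile DNA sequences, most of them old and inert copies, and plants keep them silent with DNA methylation and condensed chromatin. RNA polymerase IV makes the precursors of small interfering RNAs that guide new DNA methylation to TEs, and DDM1 lets the methylation enzymes reach DNA that is packed in heterochromatin. RNA taken from nuclei holds unspliced and newly made transcripts that are diluted in RNA of whole tissue. A read on an annotated TE can come from a transcript that starts in the TE or from a longer one that crosses it, and these counts do not separate them.

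Reads per library ranged from 1853992 to 5813317 in S7 (median 3882074), from 3401349 to 5253212 in N7, from 2615204 to 6999950 in S28, from 8614232 to 17611137 in T7 and from 7456669 to 15016702 in I28. All TEs together took 25.4 ± 1.94% of the counts in *ddm1* CS7 and 2.58 ± 1.50% in wt CS7 (SD, n = 8 each), and 2.85% in *ddm1* CT7 and 0.161% in wt CT7. The transcripts of the mutated genes do not mark the mutant nuclei. NRPD1, the subunit of RNA polymerase IV, was at 139 ± 45.0 in libraries labelled *poliv* CS7 and 82.5 ± 30.0 in wt CS7, and DDM1 was at 218 ± 90.1 in libraries labelled *ddm1* CS7 and 82.8 ± 27.3 in wt CS7 (SD, n = 8 each). Counts over a whole gene check an insertion allele poorly, so that *ddm1* and *poliv* stand here for the labels of the libraries. In tissue NRPD1 was at 12.2 ± 4.98 in *poliv* CT7 (SD, n = 3) and 9.62 ± 4.83 in wt CT7 (SD, n = 4), which does not mark the label either, and DDM1 was at 0.985 ± 0.66 in *ddm1* CT7 and 26.5 ± 12.1 in wt CT7 (SD, n = 4 each). The summed level of 6 stem cell marker genes ranged from 342 to 772 in wt CS7 and from 63.9 to 134 in wt CN7. In *ddm1* CS7 it ranged from 158 to 252 with WUSCHEL, the gene that sustains the stem cells, at 0 in all 8 libraries, while the sum of 7 mesophyll markers ranged from 108550 to 153380 in *ddm1* CS7 and from 47403 to 67298 in wt CS7. WUSCHEL was also low in the other control stem cell nuclei, at 9.25 ± 16.8 in wt CS7 and 4.65 ± 8.77 in *poliv* CS7 (SD, n = 8 each), so its 0 says little about *ddm1*. In such bulk samples, fewer cells of a type and less RNA per cell cannot be told apart.

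Most of the 183 TEs had modest levels. In wt CS7, 53 averaged from 20 to below 30, 56 from 30 to below 50, 38 from 50 to below 100, 33 from 100 to below 1000, and 3 were at 1000 or more, with a median of 41.6. At the threshold in wt CS7, AT2TE18110, AT2TE26350 and AT3TE68110 were just inside at 20.03, 20.05 and 20.05, and AT2TE74400, AT5TE37350 and AT4TE08210 were just outside at 19.98, 19.86 and 19.78. At the threshold in wt HT7, AT1TE57805, AT1TE22850 and AT3TE59660 were just inside at 19.54, 19.27 and 19.15, and AT2TE42485, AT3TE02240 and AT1TE71775 just outside at 20.24, 20.88 and 21.45. The levels on the inner and outer side of both thresholds differ by less than the spread between libraries, so the border of the set is not sharp. Chromosomes 1 to 5 held 41, 30, 45, 37 and 30 of the TEs, and these shares (22.4%, 16.4%, 24.6%, 20.2% and 16.4%) lie within 6 percentage points of the shares of all TEs (22.9%, 19.1%, 20.7%, 15.9% and 21.4%). Members also lay side by side. With TEs listed by their number along a chromosome, 54 members fell into 20 runs whose members were at most 5 rows apart, and 25 had another member in the next row. Longest were a run of 6 members from AT1TE71770 to AT1TE71830 on chromosome 1, and runs of 4 that start with AT4TE42860, AT4TE21055 and AT3TE43550. Neighbours in a run share their place in the genome and are not independent observations.

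A trio of TEs stood far above the others in level. AT4TE15950 was at 172 to 616 in *ddm1* CS7 (median 287), 487 to 81436 in *poliv* CS7 (median 17457), 255 to 91287 in wt CS7 (median 30910) and 20971 to 76799 in wt CN7 (median 37030). AT1TE48050 was at 771 to 129710 in *ddm1* CS7 (median 32604), 594 to 102960 in *poliv* CS7 (median 17241), 177 to 97580 in wt CS7 (median 15823) and 3386 to 106530 in wt CN7 (median 26599). Both TEs thus spanned more than 100-fold among wt CS7 libraries that carry the same label. AT4TE88500 was narrower, at 1189 to 7718 in *ddm1* CS7 (median 4599), 1092 to 5871 in *poliv* CS7 (median 3530), 1123 to 7954 in wt CS7 (median 3425) and 1224 to 3927 in wt CN7 (median 1873). The libraries labelled *ddm1* CS7 lay at the low end for AT4TE15950, where they overlapped the lowest wt CS7 library, and across the range of the other groups for the other two.

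The same 3 TEs had low levels in stem cell nuclei of day 28 and in tissue. AT4TE15950 was at 16.4, 48.4, 53.2 and 35.8 in *ddm1* CS28, at 0, 6.89, 27.6 and 12.1 in *poliv* CS28, and at 5.21, 0, 27.6 and 22.7 in wt CS28. AT1TE48050 was at 14.7 to 18.8 in *ddm1* CS28, 1.34 to 19.9 in *poliv* CS28 and 0.869 to 19.7 in wt CS28. In *poliv* and wt seedlings at 21 °C AT4TE15950 had no read in any library, whereas in *ddm1* CT7 it was at 29.0, 37.1, 20.6 and 25.6. The 18S rRNA gene AT3G41768 had a similar contrast, with means of 1010600 in *ddm1* CS7, 724710 in *poliv* CS7 and 590820 in wt CS7, against 33887 in wt CS28 and 20551 in wt CT7. Its part in the levels of these TEs was not tested, and the day and the library chemistry cannot be told apart.

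**Figure D1:**
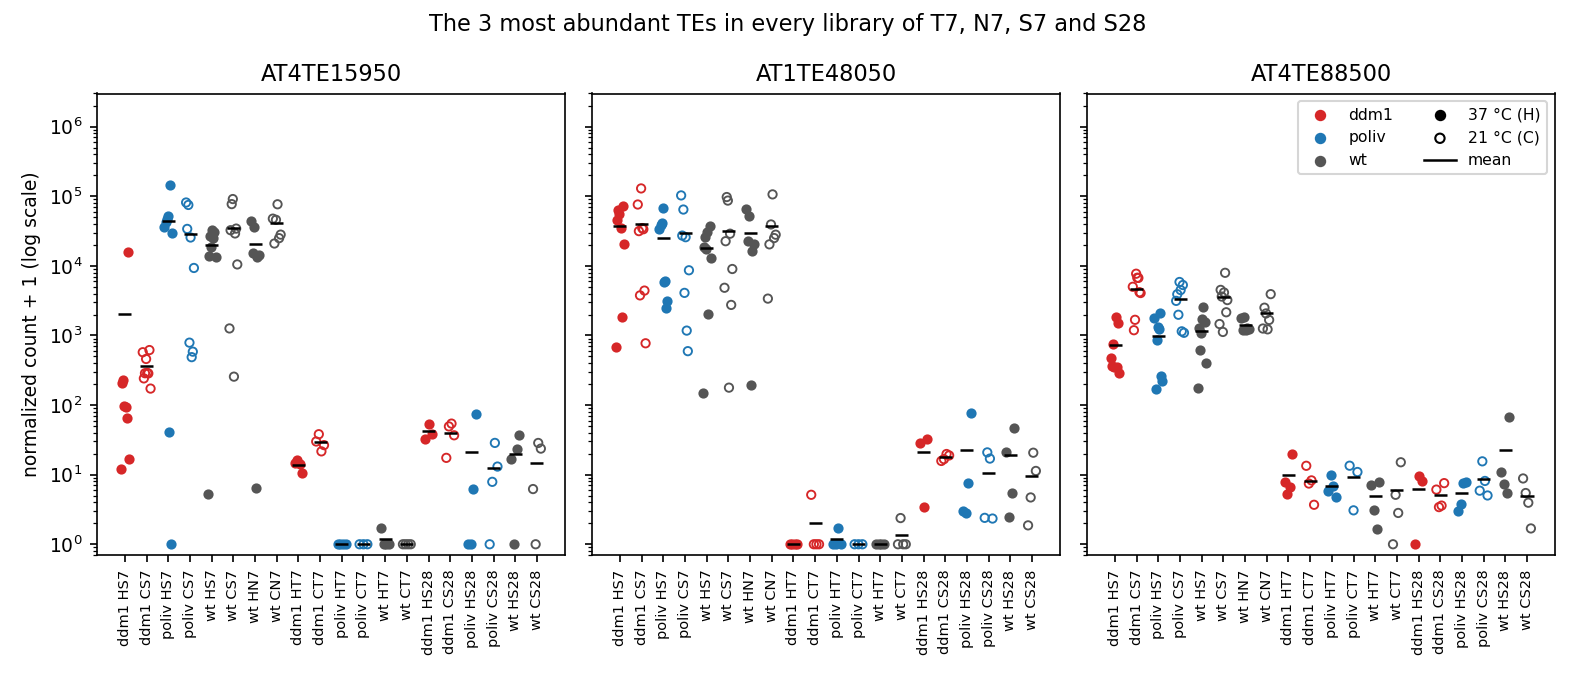
Normalized count plus 1 (log scale) of AT4TE15950, AT1TE48050 and AT4TE88500 in each library of S7, N7, T7 and S28, with 1 point per library, filled for heat and open for control, and a bar at the group mean. In wt CS7 the points of AT1TE48050 spread over more than 100-fold, AT4TE15950 is low in *ddm1* stem cell nuclei except for *ddm1* HS7 replicate 7, and all 3 TEs are below 100 in S28 and T7.

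The next 7 TEs by level differed in how far replicates spread. AT4TE42880 ranged from 530 to 848 (median 732) in wt CS7, AT4TE34430 from 431 to 602 (median 473) and AT4TE42860 from 338 to 634 (median 505). AT1TE22850 ranged from 400 to 881 (median 711) and AT2TE20870 averaged 337 ± 64.6 (SD, n = 8). Wider spreads were found for AT2TE04520, at 258 to 1160 (median 784), and for AT3TE59660, at 101 to 1863 (median 385). In wt CN7 the same TEs had a mean of 1075 ± 195 for AT4TE42880, 773 ± 151 for AT4TE34430, 645 ± 86.0 for AT4TE42860, 920 ± 194 for AT1TE22850 and 279 ± 54.6 for AT2TE20870 (SD, n = 6). For 4 of these 5 the mean was thus higher in nuclei outside the stem cells. AT2TE04520 averaged 458 ± 226 there, below its median of 784 in wt CS7. AT3TE59660 averaged 525 ± 321 there, below its mean of 651 in wt CS7, so neither shared that direction by these values.

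Over the whole set, the median over the 183 TEs of the group means was 34.6 in *ddm1* CS7, 33.9 in *poliv* CS7 and 41.6 in wt CS7. At 20 or more were 126 TEs in *ddm1* CS7 and 143 in *poliv* CS7, and in wt CN7, with a median of 36.1, they were 144. The median log2 difference of wt CS7 over wt CN7 was 0.16, with 32 TEs higher by over 1 in wt CS7 and 1 lower by over 1, and the choice of TEs that are high in wt CS7 favours this direction. At day 28, medians were 17.2 in *ddm1* CS28, 27.9 in *poliv* CS28 and 25.8 in wt CS28, and 86, 114 and 110 TEs were at 20 or more. In tissue the medians were between 0.363 and 2.04, and no more than 24 TEs reached 20 in any tissue group. Each wt HS7 library had reads for 118 to 146 of the TEs, each wt CS7 library for 177 to 180 and each wt CT7 library for 53 to 76, although T7 libraries were sequenced more deeply.

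The sum over all 183 TEs overlapped between heat and control in *poliv* and wt, where AT4TE15950 and AT1TE48050 made up most of its mean. It was 9185 to 163271 in *poliv* HS7 and 15171 to 203761 in *poliv* CS7, and 5421 to 74604 in wt HS7 and 18542 to 193074 in wt CS7. Without AT4TE15950 and AT1TE48050, the summed level of the remaining 181 TEs was 17794 to 29723 in *ddm1* HS7 (median 27074) and 30905 to 45869 in *ddm1* CS7 (median 39738). In *poliv* it was 4891 to 12544 in HS7 (median 6890) and 13510 to 19627 in CS7 (median 18083). In wt it was 4548 to 11045 in HS7 (median 5902) and 15008 to 23681 in CS7 (median 18041), so that no heat library of S7 reached the lowest control library of its genotype. In wt tissue the sum was 515 to 631 in HT7 and 622 to 872 in CT7, ranges that overlap. As a share of all TE counts, the 183 TEs made up 4.27% in *ddm1* CS7, 63.1% in *poliv* CS7 and 69.8 ± 16.9% in wt CS7 (SD, n = 8). Without the 2 highest TEs the share was 2.15 ± 0.21% in *ddm1* CS7, 23.8 ± 12.6% in *poliv* CS7 and 23.9 ± 13.2% in wt CS7 (SD, n = 8 each).

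**Figure D2:**
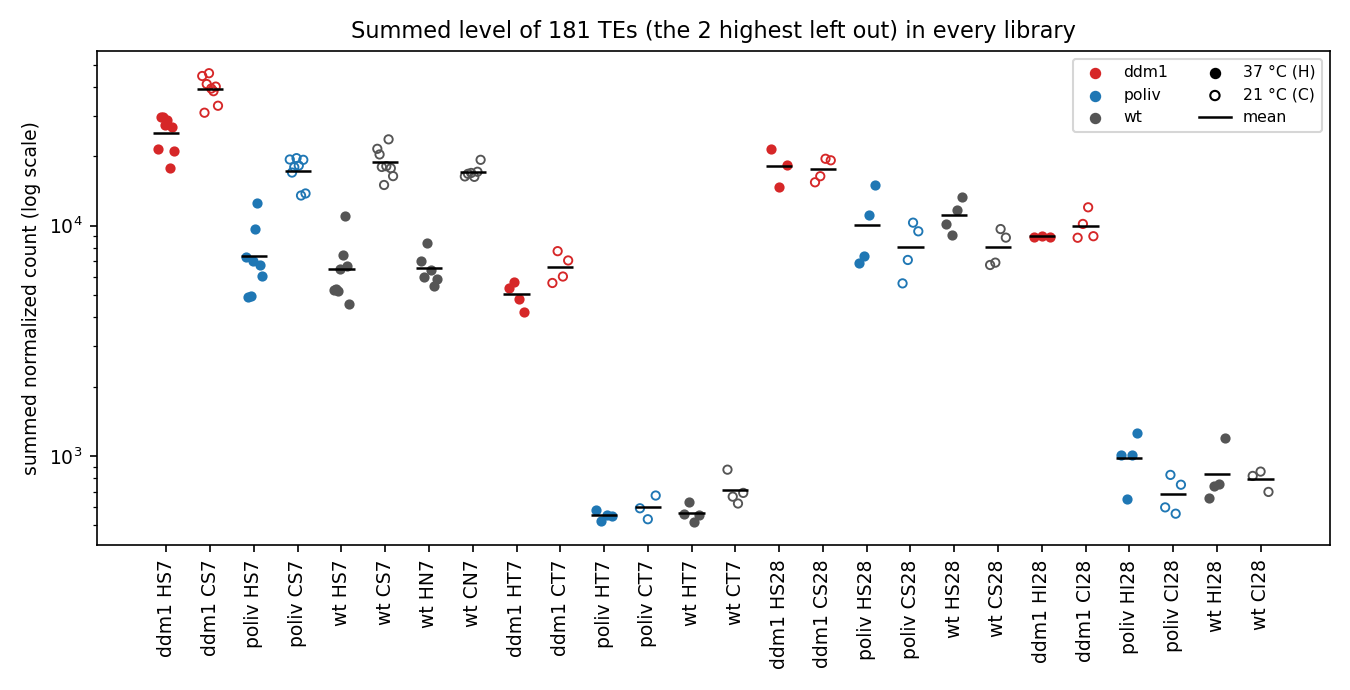
Summed normalized count (log scale) of 181 TEs, the set without AT4TE15950 and AT1TE48050, in each of the 128 libraries, with 1 point per library, filled for heat and open for control, and a bar at the group mean. Heat libraries of S7 and N7 lie below the control libraries of the same genotype, and all tissue libraries of *poliv* and wt lie below the nuclei.

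Far more of these TEs fell than rose after heat in each kind of nuclei taken directly after stress. For wt stem cell nuclei this is a description, because the rule used wt CS7: 62 of the 183 TEs were at 20 or more in wt HS7, the median log2 difference from wt CS7 was −2.23, and 137 TEs were lower by over 1 and 2 higher by over 1. A TE chosen for a high level in wt CS7 can be lower elsewhere by that choice alone. The rule also left out 68 TEs that were at 20 or more in heat-stressed seedlings, so it favours TEs that are low after heat, and the balance of falling and rising TEs is set in part by the choice in any similar nuclei. Tests were run where the rule used neither group, in *poliv*, *ddm1* and nonstem cell nuclei. The tests were limma fits to log2(normalized count + 1) of every feature that averaged 5 or more over the libraries compared, and a TE is called higher or lower at a Benjamini-Hochberg adjusted p below 0.05 with an absolute log2 fold change above 1. Between *poliv* HS7 and *poliv* CS7, 102 of 175 tested TEs were lower and 2 higher, beside 22.7% of all features lower and 12.5% higher (33.2% and 17.7% of all TEs). Between *ddm1* HS7 and *ddm1* CS7, 76 of 163 were lower and 4 higher, beside 23% of all features lower and 12.1% higher (31.6% and 12.6% of all TEs). The count of 4 was 9 with scaling to nuclear genes and TEs and 7 with edgeR on recovered reads. Between wt HN7 and wt CN7, 106 of 177 were lower and 4 higher, beside 24.4% of all features lower and 16% higher (32.8% and 26.5% of all TEs). The other 8, 20 and 6 TEs of the set were below the filter in these comparisons and were not tested.

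Markers of cell types moved with heat in the same libraries, though not all in the same direction. The summed level of the 7 mesophyll markers was 4411 to 6171 in *poliv* HS7 and 59017 to 76835 in *poliv* CS7, 5589 to 9068 in *ddm1* HS7 and 108550 to 153380 in *ddm1* CS7, and 11330 to 14021 in wt HN7 and 81292 to 110230 in wt CN7. That of 3 vasculature markers was 4.73 to 87.8 in *poliv* HS7 and 83.2 to 233 in *poliv* CS7, 12.1 to 150 in *ddm1* HS7 and 101 to 398 in *ddm1* CS7, and 39.5 to 143 in wt HN7 and 89.8 to 254 in wt CN7. For 3 epidermis markers it was 1254 to 2455 in *poliv* HS7 and 1388 to 1889 in *poliv* CS7, 90.1 to 844 in *ddm1* HS7 and 921 to 1607 in *ddm1* CS7, and 469 to 741 in wt HN7 and 886 to 1255 in wt CN7. The mean sum of 5 stomatal lineage markers was 20.9 in *poliv* HS7 and 166 in *poliv* CS7, 17.7 in *ddm1* HS7 and 140 in *ddm1* CS7, and 50.6 in wt HN7 and 148 in wt CN7. The 6 stem cell markers summed to 1511 to 2088 in *poliv* HS7 and 498 to 922 in *poliv* CS7, to 225 to 585 in *ddm1* HS7 and 158 to 252 in *ddm1* CS7, and to 34.6 to 87.7 in wt HN7 and 63.9 to 134 in wt CN7. Single markers of this list went the other way, as KNAT1 averaged 48.6 in *poliv* HS7 and 228 in *poliv* CS7, and 58.1 in *ddm1* HS7 and 143 in *ddm1* CS7. CLV3 averaged 25.4 in *poliv* HS7 and 32.3 in *poliv* CS7. The 18S rRNA gene AT3G41768 averaged 356620 in *poliv* HS7 and 724710 in *poliv* CS7, and organelle genes took 18.1% of counts in *poliv* HS7 and 26.9% in *poliv* CS7. The part of these differences in the calls of the TEs was not tested.

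The median log2 fold change of the tested TEs was −2.05 in *poliv* stem cell nuclei, −1.39 in *ddm1* stem cell nuclei and −2.29 in wt nonstem cell nuclei, where all features had medians of −0.32, −0.32 and −0.22. Other TEs with a control mean of at least 5 were lower less often, in 145 of 419 in *poliv* (34.6%), 819 of 2399 in *ddm1* (34.1%) and 127 of 357 in wt N7 (35.6%), against 58.3%, 46.6% and 59.9% of the tested members. The lists differ in level, as 143 of the 280 TEs at 20 or more in *poliv* CS7 were members, and a fall is easier to call from a higher level. The other TEs also include those left out for a level of 20 or more in wt HT7. In these descriptions no test compares the lists. Lower in all 3 comparisons, which share no library, were 50 TEs, or 49.0% of those lower in *poliv*, 65.8% of those lower in *ddm1* and 47.2% of those lower in wt N7. Of all features, 22.7%, 23% and 24.4% were lower in these comparisons. The share lower in all 3 was not counted for all features, so the 50 are not read as a trait of the set. As an alternative to the size factors, libraries were scaled to their total of nuclear genes and TEs, with rRNA, organelle-encoded and reporter genes left out. This changes both the method of scaling and the features it uses. The median of all features then moved by 0.45 in *ddm1* and 0.17 in wt N7. Relative to that median, the TEs were at −1.73, −1.08 and −2.07 before and −1.90, −1.27 and −2.09 after the change.

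**Figure D3:**
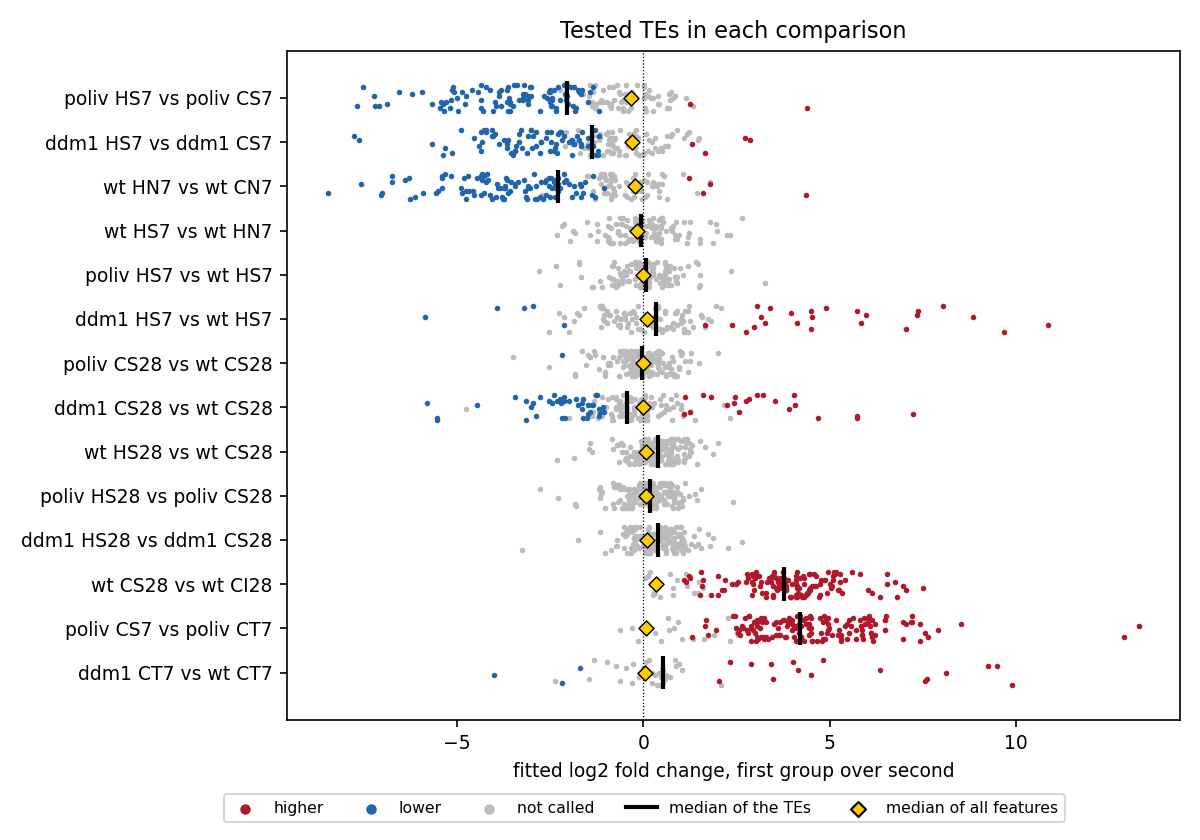
Fitted log2 fold change of each tested TE of the set (points) in 14 comparisons, first group over second, with called TEs in red (higher) and blue (lower), a bar at the median of the TEs and a diamond at the median of all tested features. In the 3 heat comparisons of day 7 nuclei the medians of the TEs lie at −2.05, −1.39 and −2.29, and in both comparisons of nuclei with tissue at 3.76 and 4.21.

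The deepest declines ended near 0, and these TEs passed the filter through the control libraries, which limits what their p-values show. AT5TE18970 had no read in any of the 8 *ddm1* HS7 libraries, against 159 to 298 in *ddm1* CS7 (median 219), which is at least 88.1-fold lower with 3 reads per library as the floor. No test is given for it, as it passed the filter through *ddm1* CS7 alone. In wt nonstem cell nuclei it was at 0 to 1.35 in HN7 and 337 to 458 in CN7 (median 421). In *poliv* HS7 it was at 0 in all 8 libraries as well, against 61.7 to 215 in *poliv* CS7. Its level at day 28 was 35.4 ± 3.20 in *ddm1* CS28, 32.3 ± 5.20 in *poliv* CS28 and 35.3 ± 10.4 in wt CS28 (SD, n = 4 each).

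AT4TE34430 was at 0 to 10.2 in *ddm1* HS7 (median 0.822) and at 376 to 645 in *ddm1* CS7 (median 495), with a log2 fold change of −7.64 ± 0.54 (SE). AT4TE42860 was at 0 to 43.0 in *poliv* HS7 (median 1.24) and at 571 to 862 in *poliv* CS7 (median 708), with a log2 fold change of −7.71 ± 0.64 (SE, adjusted p 1.2e-10). AT5TE48740 was at 0 to 1.56 in *poliv* HS7 and at 172 to 298 in *poliv* CS7 (median 254), with a log2 fold change of −7.53 ± 0.55 (SE). For each of the 3 the highest heat library lay below the lowest control library. AT5TE48740 had a far lower level in the other control nuclei, at 0 to 23.5 in *ddm1* CS7, 0 to 62.0 in wt CS7 and 7.14 to 53.0 in wt CN7. AT4TE43220 was at 0 to 5.95 in *ddm1* HS7 (median 0.411) and at 61.2 to 129 in *ddm1* CS7 (median 89.9), with a log2 fold change of −5.69 ± 0.61 (SE). AT4TE34430, AT5TE48740 and AT4TE43220 passed the filter through the control libraries alone, so no test is given for them.

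In at least 1 of these comparisons 5 TEs rose with heat, and AT5TE00480 and AT3TE65875 did so in all 3. AT5TE00480 was at 311 to 495 in *ddm1* HS7 (median 352) and 18.1 to 114 in *ddm1* CS7 (median 75.6), with a log2 fold change of 2.73 ± 0.32 (SE, adjusted p 4.0e-08). In *poliv* it was at 220 to 843 in HS7 (median 424) and 10.1 to 43.0 in CS7 (median 24.1), with a log2 fold change of 4.40 ± 0.33 (SE, adjusted p 8.0e-12). In wt nonstem cell nuclei it was at 322 to 562 in HN7 (median 472) and 5.10 to 45.7 in CN7 (median 27.1), with a log2 fold change of 4.37 ± 0.36 (SE, adjusted p 5.5e-10). Heat and control libraries did not overlap in any of the 3 comparisons, and in wt stem cell nuclei the TE was at 254 to 748 in HS7 and 13.7 to 90.6 in CS7. At day 28 it was at 62.1 ± 28.7 in *ddm1* HS28 (n = 3) and 67.5 ± 11.9 in *ddm1* CS28 (n = 4), and at 39.7 ± 35.1 in wt HS28 and 20.7 ± 10.1 in wt CS28 (SD, n = 4 each).

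Smaller increases were found for AT3TE65875, at 27.5 to 121 in *poliv* HS7 (median 67.4) and 15.3 to 61.7 in *poliv* CS7 (median 26.9), with overlapping ranges and a log2 fold change of 1.25 ± 0.41 (SE, adjusted p 0.0174). AT1TE10830 was at 18.4 to 167 in *ddm1* HS7 (median 101) and 1.97 to 25.9 in *ddm1* CS7 (median 14.1), with a log2 fold change of 2.86 ± 0.56 (SE, adjusted p 0.000145). It rose in wt nonstem cell nuclei too, to 60.4 to 195 in HN7 against 12.2 to 58.2 in CN7 (log2 fold change 1.78 ± 0.37 SE, adjusted p 0.000307). AT1TE49260 was at 1089 to 2883 in *ddm1* HS7 (median 2199) and 483 to 781 in *ddm1* CS7 (median 635), with a log2 fold change of 1.66 ± 0.15 (SE, adjusted p 2.3e-10). AT3TE94195 was at 10.2 to 82.4 in wt HN7 (median 44.5) and 4.86 to 33.6 in wt CN7 (median 9.65), with a log2 fold change of 1.60 ± 0.59 (SE, adjusted p 0.0270). That call did not hold when wt CN7 replicate 3 or 6 or wt HN7 replicate 3, 4 or 6 was left out, with adjusted p of 0.0606, 0.0617, 0.0750, 0.0526 and 0.0682.

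Heat effects differed between *ddm1* and *poliv* stem cell nuclei for 21 of 176 tested TEs, in a fit of the 4 groups with the interaction as a contrast. The effect was more positive in *ddm1* for 19 TEs and more negative for 2, beside 1.75% and 2.64% of all features and 6.5% and 11.9% of all TEs. Among the 19, 6 were below 5 and 11 below 20 in *ddm1* CS7, levels from which a fall can hardly be measured. AT4TE42860 had the largest difference, 8.45 ± 0.99 on the log2 scale (SE, adjusted p 9.6e-08). It was at 0.799 to 109 in *ddm1* HS7 and 1.81 to 27.1 in *ddm1* CS7, against the loss described for *poliv*. AT1TE71825 differed by 6.60 ± 0.69 (SE), with 0 to 1.60 in *ddm1* HS7 and 0 to 4.74 in *ddm1* CS7, and 0 to 2.18 in *poliv* HS7 and 117 to 319 in *poliv* CS7. It passed the filter through *poliv* CS7 alone, so the difference reflects the control levels of the mutants and no test is given. AT5TE48740 differed by 6.05 ± 0.96 (SE, adjusted p 3.6e-05). Among the 8 with 20 or more in *ddm1* CS7 was AT4TE10335, named after its values were seen, with means of 323 in *ddm1* HS7 and 354 in *ddm1* CS7, and of 0.990 in *poliv* HS7 and 58.5 in *poliv* CS7.

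In the other direction, AT4TE34430 fell further in *ddm1*, by 2.67 on the log2 scale (SE 0.74, adjusted p 0.0262), and was at 0 to 30.8 in *poliv* HS7 and 246 to 468 in *poliv* CS7. This call was lost with scaling to nuclear genes and TEs (adjusted p 0.111) and with edgeR on recovered reads (adjusted p 0.0561). AT5TE00480 rose less in *ddm1*, with a difference of −1.67 ± 0.48 (SE, adjusted p 0.0311), and that call was lost in 8 of 32 fits without 1 library, with adjusted p of 0.0505 to 0.0573. Those libraries were *ddm1* CS7 replicates 1, 2, 4 and 5, *poliv* CS7 replicates 2, 4 and 6 and *poliv* HS7 replicate 6. The scaling to nuclear genes and TEs shifted the median difference of all features by 0.40 and left 23 TEs more positive and 0 more negative in *ddm1*.

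No TE of the set was called between stem and nonstem cell nuclei of wt after heat. Of 118 tested TEs, 0 were higher and 0 lower in wt HS7 than in wt HN7 with limma, beside 1.02% and 0.368% of all features and 0.729% of all TEs in either direction. At an unadjusted p below 0.05 there were 14, edgeR called 0, and the median log2 fold change was −0.07. Without wt HN7 replicate 4, 1 TE was called lower. Heat-stressed stem cell nuclei of *poliv* and wt were compared in the same way, with 0 of 113 TEs called higher or lower in *poliv* HS7 by limma and 0 by edgeR, 9 at an unadjusted p below 0.05, and a median of 0.07 (−0.06 with scaling to nuclear genes and TEs). The background there was 0.201% of all features higher and 0.0869% lower, and 3.61% of all TEs higher and 0% lower. A call that is missing does not show equal levels. Not called, for instance, was AT2TE31290, with means of 40.1 in wt HS7 and 7.65 in wt HN7. In the other direction AT1TE51040 was not called, with means of 28.6 in wt HS7 and 99.8 in wt HN7, and both are named after their values were seen. AT5TE00480 was at 254 to 748 in wt HS7 and 322 to 562 in wt HN7.

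At day 28 TEs of the set differed in both directions between *ddm1* and wt stem cell nuclei. Of 156 tested TEs, 21 were higher and 41 lower in *ddm1* CS28 than in wt CS28, beside 9.21% and 5.05% of all features, and 27 were below the filter. Among all TEs tested, 50.9% were higher and 3.74% lower. Among TEs that already had a mean of at least 5 in wt CS28, 19 of 151 members were higher (12.6%) and 41 lower (27.2%), with a median of −0.46, and 631 of 1839 other TEs were higher (34.3%) and 78 lower (4.24%), with a median of 0.49. The rule chose TEs by a high level in wt CS7, so it favours TEs that are lower in *ddm1*. The balance of higher and lower members is thus set in part by the choice, and members and other TEs were not matched in level. Scaled to nuclear genes and TEs, which moved the median of all features by −0.50, the set had 18 higher and 67 lower. Relative to the median of all features, the median of the tested TEs was −0.43 before and −0.45 after this scaling. The summed level of the 6 stem cell markers was 926 to 961 in *ddm1* CS28 and 1085 to 1324 in wt CS28, and that of the 7 mesophyll markers 62064 to 73792 in *ddm1* CS28 and 33357 to 36453 in wt CS28, and their part in these calls was not tested.

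The TEs that rose in *ddm1* did so by large factors. AT4TE21055 was at 4768, 4741, 5820 and 5635 in *ddm1* CS28 and at 22.6, 45.2, 42.3 and 29.6 in wt CS28, with a log2 fold change of 7.23 ± 0.19 (SE, adjusted p 1.6e-10). AT2TE26680 was at 776, 827, 931 and 803 in *ddm1* CS28 and at 8.69, 8.90, 28.5 and 19.9 in wt CS28, with a log2 fold change of 5.74 ± 0.34 (SE, adjusted p 1.3e-06). AT1TE51040 was at 1551, 1947, 2501 and 2300 in *ddm1* CS28 and at 27.8, 12.6, 87.6 and 62.6 in wt CS28, with a log2 fold change of 5.73 ± 0.61 (SE, adjusted p 0.000631). Every *ddm1* library of these 3 TEs lay far above every wt library. In *poliv* CS28, where none of them was called, levels were 5.59 to 33.5 for AT4TE21055, 13.3 to 52.5 for AT2TE26680 and 9.77 to 170 for AT1TE51040.

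**Figure D4:**
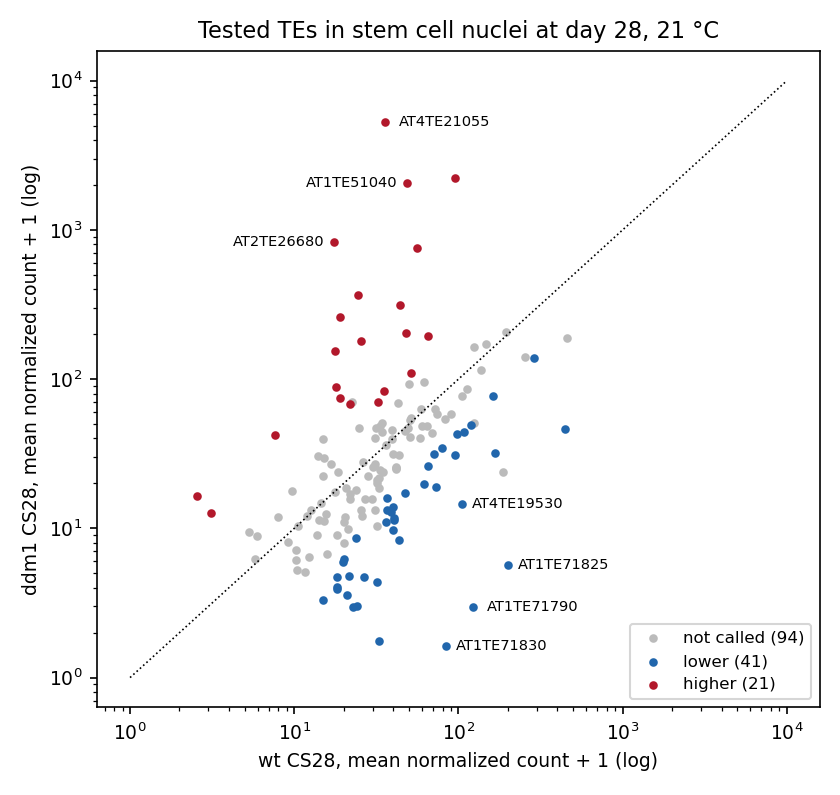
Mean normalized count plus 1 (log scales) of each tested TE in *ddm1* CS28 (y axis, n = 4) against wt CS28 (x axis, n = 4), with TEs called higher in red, lower in blue and not called in grey, and a dotted line at equality. The 21 higher TEs lie above the line with AT4TE21055 at the top, and AT1TE71825, AT1TE71790 and AT1TE71830 lie far below it.

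The largest declines in *ddm1* came from the run on chromosome 1. These TEs passed the filter through wt CS28 alone, so no test is given for them. AT1TE71830 was at 0, 0, 1.95 and 0.596 in *ddm1* CS28 and at 60.0, 79.3, 91.5 and 100.3 in wt CS28, with a log2 fold change of −5.80 ± 0.49 (SE). AT1TE71825 was at 0, 5.44, 3.89 and 9.54 in *ddm1* CS28 and at 202, 192, 199 and 207 in wt CS28, with a log2 fold change of −5.56 ± 0.61 (SE). AT1TE71790 was at 0 to 3.02 in *ddm1* CS28 and at 119, 129, 108 and 133 in wt CS28, with a log2 fold change of −5.55 ± 0.44 (SE). The summed level of all 6 members of the run was 24.0 to 38.8 in *ddm1* CS28 and 447 to 522 in wt CS28. In day 7 stem cell nuclei it was 104 to 201 in *ddm1* CS7, 613 to 1121 in *poliv* CS7 and 520 to 1005 in wt CS7.

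Within the run, AT1TE71770 went its own way. It was at 104 to 196 in *ddm1* CS7 (median 146) and 52.4 to 178 in wt CS7 (median 96.6), and at 32.9, 24.8, 15.6 and 25.6 in *ddm1* CS28 and 28.7, 23.7, 30.5 and 33.0 in wt CS28. The low sums in *ddm1* thus come from the other 5 TEs, of which AT1TE71810, named after its values were seen, was at 0 to 2.37 in *ddm1* CS7 and 44.4 to 113 in wt CS7. Under heat all members shown were low in every genotype, and the sum of the run averaged 5.80 in *ddm1* HS7, 8.09 in *poliv* HS7 and 31.1 in wt HS7.

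**Figure D5:**
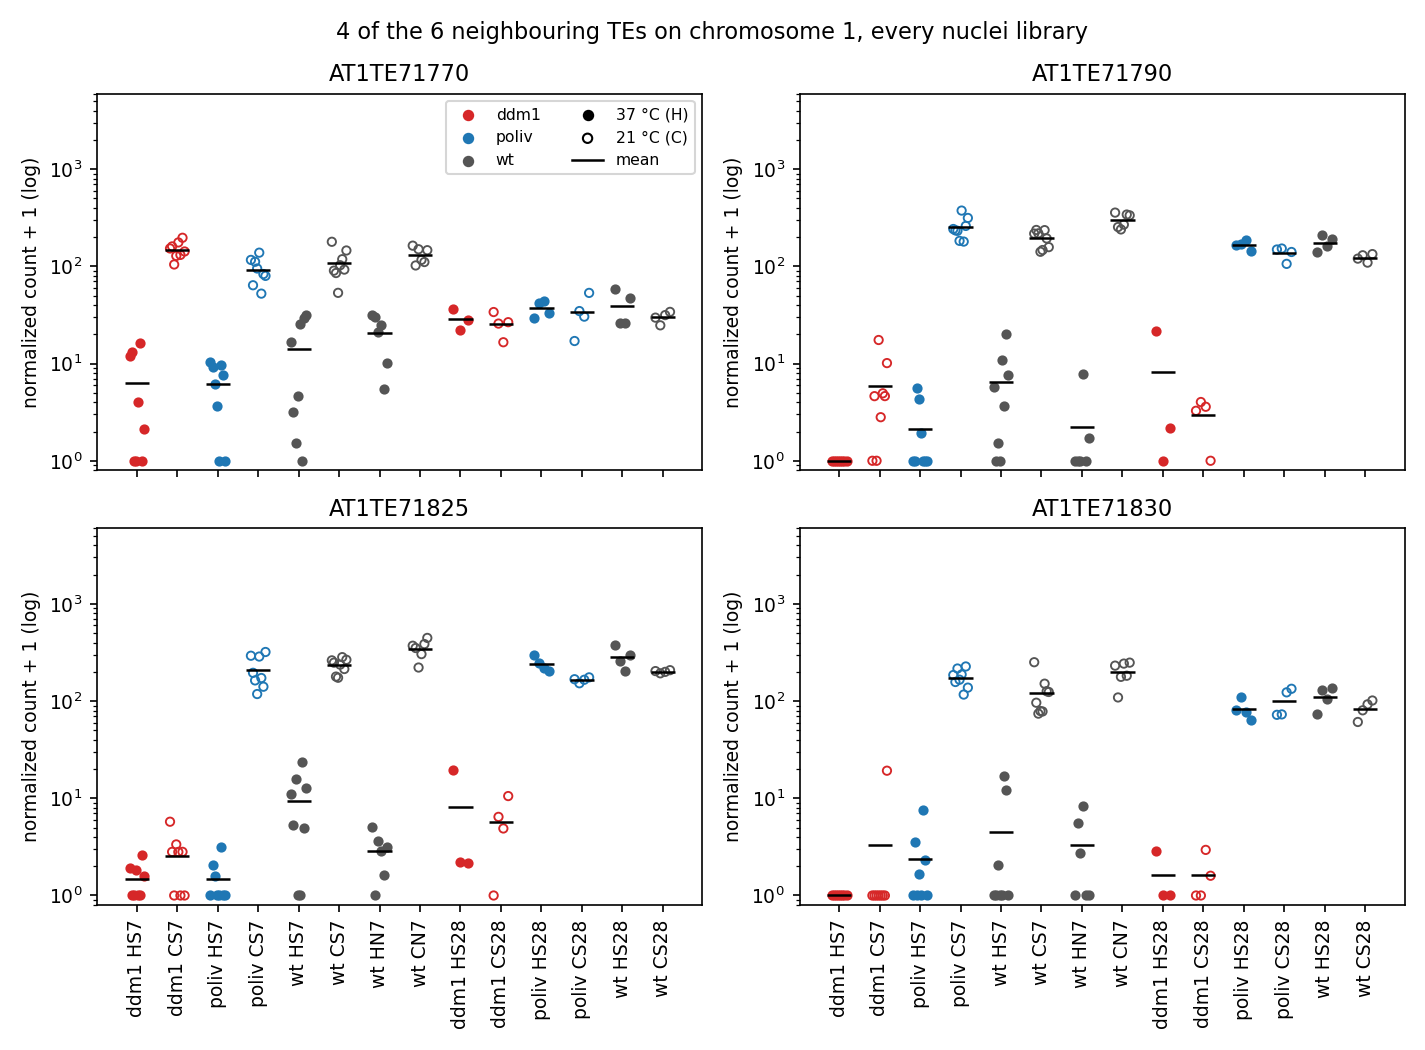
Normalized count plus 1 (log scale) of AT1TE71770, AT1TE71790, AT1TE71825 and AT1TE71830 in each library of nuclei, with 1 point per library, filled for heat and open for control, and a bar at the group mean. AT1TE71770 overlaps between *ddm1* CS7 and wt CS7, and the other 3 are low in all *ddm1* groups and low after heat in S7 and N7.

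In nuclei, the gene most like 4 of these 5 TEs was AT1G58602, annotated by RefSeq as a disease resistance protein with leucine-rich repeat and NB-ARC domains. Over the 83 libraries of nuclei it was the gene most correlated with AT1TE71790 (r = 0.91), AT1TE71830 (r = 0.93), AT1TE71825 (r = 0.91) and AT1TE71810 (r = 0.90), and for AT1TE71805 it was RLP19 (r = 0.88). Over all 128 libraries it remained the closest gene for AT1TE71790 (r = 0.90) and AT1TE71830 (r = 0.85) only. These values describe libraries of mixed material and were chosen after they were seen. AT1G58602 averaged 20.6 ± 15.1 in *ddm1* CS7, 1220 ± 133 in *poliv* CS7 and 1212 ± 179 in wt CS7 (SD, n = 8 each). It averaged 10.3 ± 3.82 in *ddm1* CS28 and 713 ± 75.6 in wt CS28 (SD, n = 4 each), and 42.0 ± 47.7 in wt HS7. In tissue the gene was at 150 ± 31.9 in wt CT7 (SD, n = 4), where AT1TE71790 averaged 16.9.

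Heat-stressed stem cell nuclei and seedlings of *ddm1* were also compared with wt. Of 131 tested TEs, 24 were higher and 5 lower in *ddm1* HS7 than in wt HS7, beside 13.3% and 3.13% of all features and 78% and 0.487% of all TEs. Since a TE can pass the filter through *ddm1* alone, the calls were also counted among TEs with a mean of at least 5 in wt HS7, where 11 of 109 members were higher (10.1%) and 5 lower (4.59%), and 154 of 386 other TEs were higher (39.9%) and 6 lower (1.55%). As at day 28, the choice of TEs that are high in wt CS7 favours members that are lower in *ddm1*, and the lists were not matched in level. The 6 stem cell markers summed to 225 to 585 in *ddm1* HS7 and 1051 to 1537 in wt HS7, and their part in these calls was not tested. Of 51 tested TEs, 16 were higher and 3 lower in *ddm1* CT7 than in wt CT7, beside 6.32% and 0.362% of all features and 82% and 0.255% of all TEs. Most of the 16 passed the filter through *ddm1* and 10 were at 0 in all wt CT7 libraries, so this count is a description. Among TEs with a mean of at least 5 in wt CT7, 2 of 34 members were higher (5.88%) and 3 lower (8.82%), and 14 of 138 other TEs were higher (10.1%) and 0 lower. Scaling to nuclear genes and TEs gave 21 higher and 20 lower in HS7 and 8 higher and 0 lower of 18 tested in CT7, and it moved the median of all features by −0.56 and −0.11. Most TEs of the set lie below the filter in seedlings, so the second comparison speaks for 51 of them. Higher in *ddm1* in all 3 comparisons, which share no library, were 12 TEs, or 57.1% of those higher in CS28, 50.0% of those higher in HS7 and 75.0% of those higher in CT7, as a description with the same limit. The share of all features higher in all 3 was not counted.

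AT4TE21055 was at 1882 to 2724 in *ddm1* HS7 (median 2246) and 0 to 0.876 in wt HS7, where the groups lie far apart. In seedlings it was at 1013, 1505, 1106 and 1328 in *ddm1* CT7 and at 0, 0, 0 and 1.76 in wt CT7. As it passed the filter through *ddm1* in both, no test is given. The transcript of this TE was therefore high in *ddm1* in each of these materials, whereas 41.9 ± 39.1 in wt CS7 (SD, n = 8) had placed it in the set. AT1TE51040 was at 2723 to 15634 in *ddm1* HS7 (median 9360) and 0 to 63.4 in wt HS7 (log2 fold change 8.85 ± 0.76 SE, adjusted p 1.5e-07). Its level was 433, 657, 604 and 802 in *ddm1* CT7 and 0 in all 4 wt CT7 libraries, at least 123-fold higher. AT1TE49260 was at 1089 to 2883 in *ddm1* HS7 and 0 to 14.7 in wt HS7. In wt CS7 AT1TE49260 had a median of 0.430, and 1 library at 158 raised its mean to 25.5. AT2TE20735 was at 502, 1358, 655 and 596 in *ddm1* CT7 and 0 in all 4 wt CT7 libraries, at least 153-fold higher.

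Lower in *ddm1* HS7 was AT4TE34430, at 0 to 10.2 in *ddm1* HS7 and 19.7 to 85.4 in wt HS7, with a log2 fold change of −3.94 ± 0.71 (SE). As this TE passed the filter through wt HS7 alone, no test is given for it. AT2TE16235 had no read in any *ddm1* library of stem cell nuclei and was at 5.05 to 34.2 in wt HS7, at least 4.04-fold lower in *ddm1* HS7. It passed the filter through wt HS7 alone, and stayed above it in 12 of 16 fits without 1 library, so no test is given. AT4TE15950 was at 11.0 to 15808 in *ddm1* HS7 (median 94.9) and 4.34 to 32696 in wt HS7 (median 22173), with a log2 fold change of −5.87 ± 1.87 (SE, adjusted p 0.0407). This call rests on a narrow margin. It was lost in 14 of 16 fits without 1 library (adjusted p 0.0558 to 0.0784), without the filter on low values (0.0647) and with edgeR (log2 fold change −3.17, adjusted p 0.295). The count of 5 lower TEs was 3 with edgeR, 2 without wt HS7 replicate 6, and 3 without *ddm1* HS7 replicate 4, wt HS7 replicate 2 or wt HS7 replicate 5.

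In seedlings the 3 lower TEs were AT1TE71790, AT1TE42900 and AT3TE51195. AT1TE71790 was at 0 in all *ddm1* CT7 libraries and at 28.8, 15.2, 16.4 and 7.04 in wt CT7, at least 4.05-fold lower. It passed the filter through wt CT7 alone, so no test is given. AT1TE42900 was at 1.38, 4.84, 4.85 and 8.08 in *ddm1* CT7 and at 30.6, 26.2, 27.3 and 12.3 in wt CT7 (log2 fold change −2.19 ± 0.50 SE). Its mean in *ddm1* CT7 lay just below the filter as well, so no test is given, and its call was lost without wt CT7 replicate 2. AT3TE51195 was at 8.28, 6.46, 3.64 and 2.69 in *ddm1* CT7 and at 12.4 to 27.3 in wt CT7 (log2 fold change −1.71 ± 0.45 SE, adjusted p 0.0393). The last call was lost in 6 of 8 fits without 1 library (adjusted p 0.0562 to 0.129) and with edgeR (0.0522).

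Between *poliv* and wt stem cell nuclei of day 28 a single TE was called. Of 161 tested TEs, 0 were higher and 1 lower in *poliv* CS28 than in wt CS28, beside 0.122% and 0.282% of all features and 0.594% and 0.0792% of all TEs, and the median log2 fold change was −0.04. With limma 13 had an unadjusted p below 0.05, and edgeR called 0 higher and 1 lower. Without *poliv* CS28 replicate 3, 2 were called lower. The exception was AT4TE19530, at 15.4, 16.1, 26.7 and 30.9 in *poliv* CS28 and at 72.1, 88.2, 155 and 104 in wt CS28, with no overlap and a log2 fold change of −2.19 ± 0.31 (SE, adjusted p 0.00146). In day 7 stem cell nuclei, where the level in wt CS7 is only described, it was at 0 to 43.2 in *poliv* CS7 (median 12.7) and 101 to 291 in wt CS7 (median 217). In libraries labelled *ddm1* it was at 3.61 to 21.2 in CS7 and at 6.24, 8.46, 20.8 and 18.5 in CS28.

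At 21 d after the stress limma called no change of the set with all libraries in the fit. Of 164 tested TEs in wt, 165 in *poliv* and 149 in *ddm1*, limma called 0 higher and 0 lower in HS28 relative to CS28 of the same genotype. All features had 0% higher in wt, 0.0541% in *poliv* and 0.169% in *ddm1*, and 0%, 0% and 0.0604% lower. Of all TEs, 0.0969% were higher and 0.0727% lower in *ddm1*, with 0% in the other genotypes. At an unadjusted p below 0.05 there were 27, 13 and 22 TEs, and edgeR called 0 in each genotype. Without *ddm1* HS28 replicate 1, 4 TEs were called higher and 2 lower in *ddm1*. Medians were 0.38 in wt, 0.18 in *poliv* and 0.38 in *ddm1*, and 124, 99 and 108 TEs had a log2 fold change above 0. All tested TEs had medians of 0.73, 0.34 and 0.26 in the same order, and all features of 0.08, 0.07 and 0.10. Among TEs with a mean of at least 5 in CS28, members had medians of 0.36, 0.15 and 0.36, and other TEs of 0.47, 0.04 and 0.06. No test compares these lists. The summed level of the set without the 2 highest TEs was 9124 to 13322 in wt HS28 and 6747 to 9661 in wt CS28, ranges that overlap. AT1TE71825, near 0 after heat at day 7, was at 378, 256, 202 and 294 in wt HS28 and at 202, 192, 199 and 207 in wt CS28. AT4TE42860 was at 534, 481, 643 and 549 in wt HS28 and at 211, 194, 647 and 714 in wt CS28, and AT4TE42880 at 594, 678, 634 and 753 in wt HS28 and 245, 310, 574 and 692 in wt CS28.

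The largest median fold changes of the set were those between nuclei and tissue. Of 151 tested TEs, 134 were higher and 0 lower in wt CS28 than in wt CI28, beside 34.4% and 24.1% of all features and 84.2% and 1.88% of all TEs. Of 177 tested TEs, 160 were higher and 0 lower in *poliv* CS7 than in *poliv* CT7, beside 28.6% and 27% of all features and 66.3% and 5.62% of all TEs. The medians were 3.76 and 4.21 on the log2 scale, and 118 TEs were higher in both, which is 73.8% of the list of day 7 and 88.1% of the list of day 28. A set with a mean below 20 in wt HT7 was bound to have low levels in seedling tissue, and a TE passes the filter here mostly through the nuclei, so these counts are a description of the set only. With scaling to nuclear genes and TEs the median of all features moved by 2.26 and 2.59, and the TEs lay 3.44 and 4.14 above it before and 2.66 and 3.22 after.

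AT2TE54200 was at 136, 237, 211 and 155 in wt CS28 and at 0 in all 3 wt CI28 libraries, at least 48.7-fold higher. It was 1 of 9 TEs whose mean was higher by over 1 on the log2 scale in wt CS28 than in wt CS7, with a median of 0 and a highest value of 74.7 in wt CS7, and it was at 29.5, 62.3, 0 and 0 in *ddm1* CS28 and 190, 100.2, 201 and 174 in *poliv* CS28. AT3TE43550 was at 280, 284, 298 and 283 in wt CS28 and at 1.70, 0 and 2.86 in wt CI28. AT3TE06550 was at 109, 149, 185 and 202 in wt CS28 and at 0, 0 and 0.954 in wt CI28. In *poliv* at day 7 the largest fitted difference was that of AT1TE48050, at 594 to 102960 in CS7 and 0 in all 3 CT7 libraries, followed by AT4TE15950, at 487 to 81436 in CS7 and also 0 in all 3 CT7 libraries. AT4TE88500 was at 1092 to 5871 in *poliv* CS7 and at 12.5, 2.07 and 9.93 in *poliv* CT7. These TEs passed the filter through the nuclei, so their levels are described without a test.

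Each TE was also set beside the gene whose profile over the 128 libraries was most like it, by Pearson's r of log2 of the normalized count plus 1 over 19673 genes. The highest r ranged from 0.41 to 0.97 with a median of 0.84, and all libraries share the large contrast between nuclei and tissue, and genes and libraries are not independent here. For 37 of the 183 TEs the gene lies on their own chromosome, 1 of 5. The share to be met without a link to position was not computed, so the 37 are not read as shared location. For 10 TEs the gene is encoded in an organelle, as were 212 of the 19673 genes compared. AT5G22555, an uncharacterized protein gene, was most like 6 TEs, among them all of the 3 highest, with r of 0.95 for AT1TE48050, 0.94 for AT4TE88500 and 0.80 for AT4TE15950. Like AT2TE04520 was AT3G52700 (r = 0.95), like AT2TE20870 was AT5G28400 (r = 0.94), like AT4TE42880 was AT5G40340 (r = 0.92) and like AT4TE34430 was RLM3 (r = 0.91). The heat-induced AT5TE00480 was most like PARP2 (r = 0.91), a gene for a poly(ADP-ribose) polymerase, and AT1TE22850 was most like ATCG00020 (r = 0.90), a chloroplast gene. These are likenesses of level over libraries and were not read as shared control.

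A list of 43 genes for silencing and nuclear RNA surveillance was followed in the same fits. Under heat, 8 of 42 tested genes rose and 4 fell in *poliv* stem cell nuclei, beside 12.5% and 22.7% of all features. In *ddm1* stem cell nuclei 7 of 41 rose and 7 fell, beside 12.1% and 23%, and in wt nonstem cell nuclei 11 of 41 rose and 9 fell, beside 16% and 24.4%. CLSY3, which guides RNA polymerase IV to its loci, averaged 465 ± 117 in *poliv* HS7 and 53.5 ± 25.1 in *poliv* CS7 (SD, n = 8 each, log2 fold change 3.18), and rose by 3.64 in wt N7. HTA6, a histone H2A variant of heterochromatin, averaged 3.86 ± 5.38 in *ddm1* HS7 and 64.1 ± 42.4 in *ddm1* CS7 (SD, n = 8 each, log2 fold change −4.40). AGO9, an Argonaute protein of the stem cells, averaged 569 ± 145 in wt HS7 (n = 8) and 29.9 ± 20.7 in wt HN7 (SD, n = 6), and was 1 of 6 of 42 genes higher in stem cell nuclei after heat with 0 lower, beside 1.02% and 0.368% of all features. At day 28, 0 of 43 genes were higher and 2 lower in *ddm1* than in wt, beside 9.21% and 5.05% of all features, and 0 higher and 1 lower in *poliv*, beside 0.122% and 0.282%. Both lists held ROS1, the DNA demethylase, which averaged 254 ± 42.9 in *ddm1* CS28, 96.8 ± 29.1 in *poliv* CS28 and 621 ± 57.6 in wt CS28 (SD, n = 4 each, log2 fold changes −1.30 and −2.71). Heat-stressed *ddm1* stem cell nuclei had 0 of 42 genes higher and 7 lower than wt, beside 13.3% and 3.13%, and the list had 0 of 43 genes called in each genotype at 21 d after heat. Changes of these genes and of the TEs are given side by side, and no relation between them was tested.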

How the data were processed

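Polyadenylated RNA of 128 libraries in 26 conditions was sequenced. The authors converted reads with bedtools 2.27, ran the nextflow rnaseq pipeline with clipped reads on TAIR10 with TEs as single features and TE genes left out, and divided counts by DESeq2 size factors, so that the deposited values are a signal of normalized counts per feature and library. Aligner, counting tool and strand setting are not given in the sources used here. Without strand, a TE and an overlapping transcript cannot be told apart. Gene names come from RefSeq, and positions, families and sequences of the TEs were not used here.

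Groups came from titles and labels, and whether replicates are separate plants or sorts is not stated, so the p-values reflect only how these libraries vary, which may in part be technical. The TEs, the lists and the tests were chosen with earlier results of these data known. Each of 15 contrasts, 14 of them between pairs of groups and 1 interaction, was fitted with limma 3.58.1 in R 4.3.3 (lmFit, eBayes with trend and robust) on log2(normalized count + 1) for features that averaged 5 or more, with Benjamini-Hochberg adjustment over all features and a call at adjusted p below 0.05 and an absolute log2 fold change above 1. The added 1 understates changes of low features. TEs named for a contrast are the 3 called members with the largest fold change in each direction (all where fewer), beside the 10 with the highest mean in wt CS7 and the 3 just inside and outside each threshold. Runs and genes of like profile were named after their values were seen. Marker lists of stem cells, mesophyll, vasculature, epidermis and the stomatal lineage were summed per library. Dividing by the smallest step of a library gave whole numbers within 0.1 for 100% of values. Reads were taken as recovered for 125 libraries but not for the other 3 (*ddm1* HI28 replicate 2, *ddm1* HS7 replicate 5, wt CN7 replicate 1). Alternatives were edgeR 4.0.16 (quasi-likelihood) on the recovered reads, a pseudocount of 5, no filter, a replicate block and leaving out each library. A further alternative, scaling to nuclear genes and TEs, replaced the size factors by the library total without rRNA, organelle-encoded and reporter genes. Floors of 3 reads cover counting error only. The fits were tested on simulated data.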

Additional observations from a re-analysis of the deposited data

Results flagged for a closer look

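Among 82 sets of libraries of 1 group tested for a single library far from the others, 10 were marked, and chance marks about 5% of such sets. The summed level without the 2 highest TEs was 19300 in wt CN7 replicate 6, with the next library at 17130, and 11050 in wt HS7 replicate 6, with the next at 7476. AT4TE15950 was at 144600 in *poliv* HS7 replicate 6, with the next library at 52760, and at 15810 in *ddm1* HS7 replicate 7, with the next at 225.2. AT3TE59660 was at 1545 in wt HS7 replicate 6 (next 694.7) and at 2571 in *poliv* CS7 replicate 3 (next 342.4). AT4TE42860 was at 28.03 in wt HS7 replicate 8 (next 12.85) and at 108.9 in *ddm1* HS7 replicate 5 (next 43.77). AT1TE22850 was at 362.3 in *ddm1* CS7 replicate 3 (next 242.5), and AT2TE20870 was lowest at 244.7 in *ddm1* CS7 replicate 4 (next 325.8). Replicate 6 of wt HS7 appears in this list 2 times.

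By the test of the interaction, the heat effect in stem cell nuclei differed between *ddm1* and *poliv* for 21 TEs. The difference, *ddm1* minus *poliv* on the log2 scale, was 8.446 for AT4TE42860 (limma adjusted p 9.56e-08), 6.603 for AT1TE71825 (no test given, as it passed the filter through *poliv* CS7 alone), 6.048 for AT5TE48740 (3.59e-05), −2.67 for AT4TE34430 (0.0262) and −1.666 for AT5TE00480 (0.0311). The first 3 were low in *ddm1* nuclei before heat, so that a fall there could hardly be measured.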

How the results depend on the processing

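Counts of called TEs were recomputed under each alternative, with a count taken as moved when it changed by more than 1.5 times, and no called TE changed its sign. Scaling to nuclear genes and TEs moved 5 counts beyond that: higher in *ddm1* HS7 over *ddm1* CS7 became 9 instead of 4, lower in *ddm1* HS7 than in wt HS7 20 instead of 5, lower in *ddm1* CS28 than in wt CS28 67 instead of 41, and in *ddm1* CT7 over wt CT7 higher became 8 instead of 16 and lower 0 instead of 3. It turned the sign of the median log2 fold change of the tested TEs in *ddm1* HS7 over wt HS7 (−0.32 instead of 0.33) and in *poliv* HS7 over wt HS7 (−0.06 instead of 0.07). With edgeR on recovered reads, 7 TEs were higher in *ddm1* HS7 than in *ddm1* CS7 and 3 lower in *ddm1* HS7 than in wt HS7. Without the filter, 2 were lower in *poliv* CS28 than in wt CS28 and 2 higher in *ddm1* HS28 than in *ddm1* CS28. Same-numbered libraries did not all deviate together (correlations −0.227 to 0.670, with no comparison over 0.1 in all pairs), so numbers were not taken as pairs. With the replicate block, 1 TE was higher in *poliv* HS7 than in wt HS7 and 2 lower in *poliv* CS28 than in wt CS28, the other 27 counts did not move, and the call of AT3TE51195 in *ddm1* CT7 over wt CT7 was lost (adjusted p 0.0759), where 3 of 4 pairs correlated over 0.1. Leaving out 1 library did not move 333 of 342 counts. The exceptions were the TEs lower in wt HS7 than in wt HN7 (0 to 1, with 1 without wt HN7 replicate 4), lower in *ddm1* HS7 than in wt HS7 (2 to 5, with 2 without wt HS7 replicate 6), lower in *poliv* CS28 than in wt CS28 (1 to 2, with 2 without *poliv* CS28 replicate 3), and higher (0 to 4) and lower (0 to 2) in *ddm1* HS28 than in *ddm1* CS28, with the most without *ddm1* HS28 replicate 1. Why these counts move was not tested. Of the named TEs, 34 of 658 calls were lost when 1 library was left out, 3 of 47 with edgeR, 2 of 47 without the filter, 2 of 44 with the other scaling, 1 of 47 with the replicate block and 0 of 47 with a pseudocount of 5. At 1853992 to 6999950 reads per library of nuclei, a TE at 20 rests on few reads, so a missing call does not show equal levels.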
